A study of Bos taurus with 9 samples.

Results

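This report covers 9 genes of the complement system in cultured bovine endometrial cells, namely C1R, C1S, C3, CFB, CFI, SERPING1, CD46, CD55 and CD59. The genes were chosen by symbol, and all 9 were found among the 17162 genes of the deposited expression table. Cells labelled primary bovine endometrial epithelial cells (BEND, wild type) were sequenced in 3 groups of 3 libraries each. CON cells were untreated, GA cells received 1 nM estradiol (E2) and 100 nM progesterone (P4), and GB cells received the same hormones and 100 ng/mL interferon tau (IFNT). The cells grew in medium with serum. The labels give 12 h of treatment, and the methods of the study describe hormones for 12 h and then, in GB, IFNT for another 12 h. When CON and GA cells were collected is not given in the sources used here, so IFNT and time in culture cannot be told apart in the comparisons with GB. The cells came from uteri of Holstein cows taken at slaughter and were purified over several passages. The study reported them positive for cytokeratin by immunofluorescence, which was not analysed here. Nothing in the labels says whether the replicates came from separate animals, so p-values measure the spread between these cultures only.

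Complement is a set of plasma and membrane proteins that mark and destroy microbes and clear cell debris. In the classical pathway the recognition molecule C1q carries the proteases C1r and C1s. C1r activates itself and then C1s, which cleaves C4 and C2 to form an enzyme, the C3 convertase, that splits C3. Factor B forms the corresponding enzyme of the alternative pathway. Host cells hold the cascade back at several steps. SERPING1 (C1 inhibitor) inactivates C1r and C1s, factor I (CFI) cleaves the deposited C3b and C4b with the help of cofactors such as CD46, CD55 breaks up convertases, and CD59 blocks the final membrane pore. In the pregnant uterus these regulators are known from work on protection of the conceptus, which is foreign tissue to the mother, and IFNT is the interferon by which the ruminant conceptus signals its presence.

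The values were the authors' FPKM, a read count scaled for transcript length and library depth, with 2 decimals. Differences were tested with limma on log2(FPKM + 0.5) in 1 fit of the 9 libraries, over the 12578 genes whose FPKM averaged 0.5 or more, with Benjamini-Hochberg adjustment over all of them. Genes were called DEGs where |log2FC| exceeded 1 and the adjusted p was under 0.05. The added 0.5 makes the log2FC of a gene of low FPKM smaller than its true change. All 6 interferon-stimulated genes looked up (ISG15, MX1, MX2, OAS2, RSAD2 and IFIT2) were higher DEGs in GB, with ISG15 at 5536 to 5616 FPKM there and at 1.76 to 7.01 in the other libraries. Of the steroid-response genes, GREB1 was at 2.03 to 2.51 FPKM in the hormone-treated libraries and 0.09 to 0.38 in CON. PGR was a DEG in GB vs. CON only (log2FC 1.03). Its log2FC was 0.41 in GA vs. CON (limma adjusted p = 0.0628) and 0.61 in GB vs. GA (adjusted p = 0.000447). ESR1 was a DEG in no comparison. The epithelial label was not borne out by markers at the RNA level, unlike the cytokeratin protein that the study reported. Each of the 10 epithelial markers in the table, keratins included, was under 1 FPKM in every library, the highest value being 0.70, of CLDN4, while all 12 stromal fibroblast markers were above 1, led by VIM. The summed FPKM of these stromal markers lay at 17000.5 to 17566 in CON, at 17164 to 17576 in GA, but at 15404 to 15508 in GB. VIM, the largest part of this sum, averaged 9082 in CON and 7777 in GB. The list did not move together. PDGFRA (150 in CON, 196 in GB), DCN (850 and 945) and LUM (701 and 747) averaged higher in GB than in CON, the other stromal markers lower. Endothelial markers summed to 1.99 to 4.10 FPKM in CON and GA and to 4.88 to 6.16 in GB, with 4 of 6 under 1 FPKM throughout. Of these 6, EMCN, CDH5, KDR and PECAM1 averaged higher in GB than in CON or GA, and VWF and TEK lower. The 7 immune markers in the table summed to 27.7 to 33.8 in CON, with 33.0 to 38.6 in GA, then 23.5 to 36.9 in GB, mostly CD14, and the 4 hepatocyte markers to 9.90 to 13.7 in CON, 5.93 to 8.05 in GA, then 5.59 to 6.24 in GB. The part of these shifts in the results below was not tested, and in bulk RNA fewer cells of a type and less RNA per cell cannot be told apart.

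Of the 9 genes, C1R, C1S and SERPING1 rose in GB, by 2.96 to 4.47 times over CON and 2.91 to 5.19 times over GA as ratios of mean FPKM. These are the paired proteases that start the classical pathway and the inhibitor that inactivates both. C3 and the membrane regulators CD46, CD55 and CD59 were not DEGs in any comparison. CFB and CFI were too low to be tested. Thus 3 of the 7 tested members were DEGs in GB vs. CON, all higher in GB, where 4.01% of all tested genes were DEGs, 2.94% higher and 1.07% lower. In GB vs. GA the same 3 members were DEGs, all higher in GB, beside 3.64% of all tested genes, 2.66% higher and 0.978% lower. On the adjusted p alone CD46 joined them, which made 4 of 7 in each comparison, beside 33.5% of all tested genes against CON and 29.0% against GA. The median log2FC of the 7 tested members was 0.36 against CON and −0.0079 against GA, beside medians of −0.016 and −0.075 over all tested genes. The comparisons share the GB libraries, so they are not independent of each other.

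**Figure D1:**
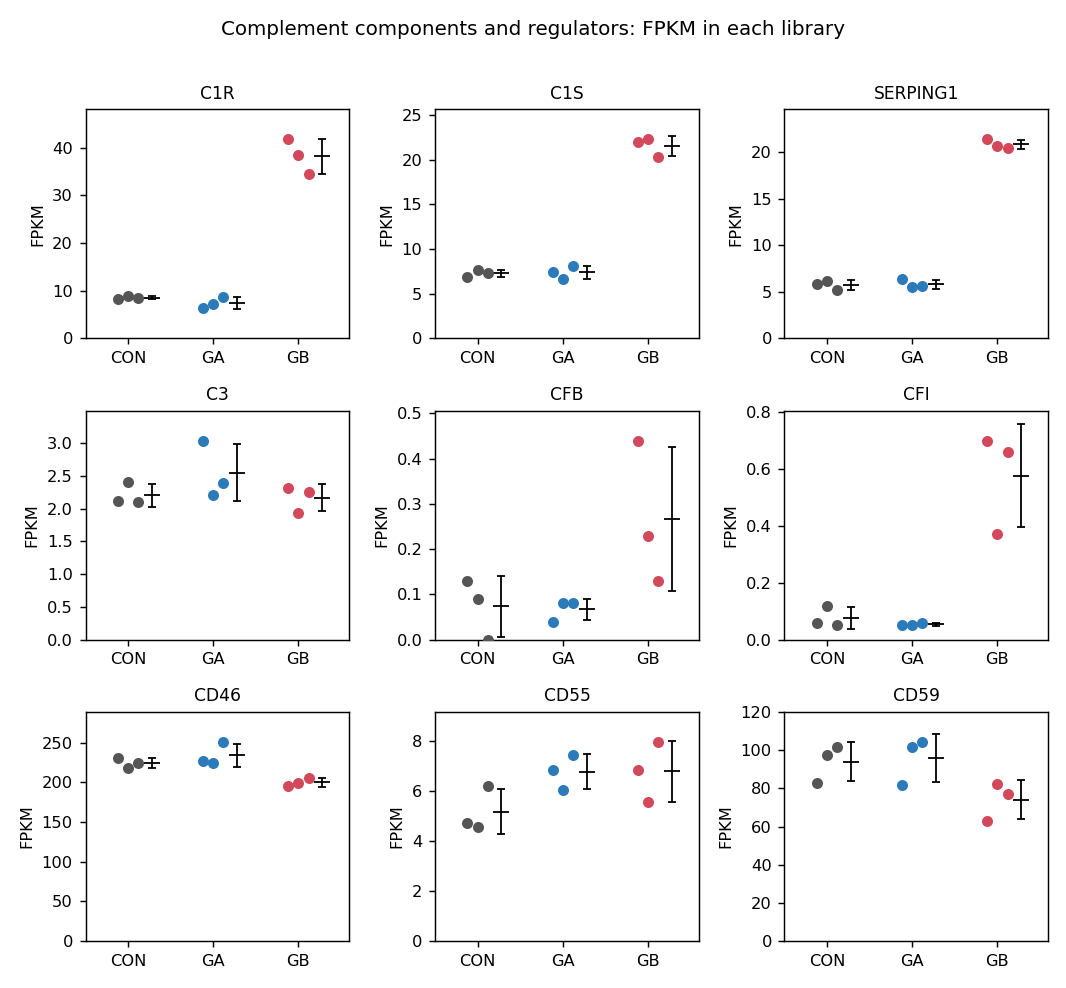
FPKM of the 9 complement genes in each library, with 1 panel per gene, a vertical axis that starts at 0 and 3 points per group (CON, untreated; GA, E2 and P4; GB, E2, P4 and IFNT), and black marks and bars for the mean and SD (n = 3). In the panels of C1R, C1S and SERPING1 the GB libraries lie far above the others, those of CD46 lie at 195 to 206 below all others, and CFB and CFI stay under 1 FPKM.

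C1R, the protease that activates itself and then C1s, was at 8.21, 8.97 and 8.47 FPKM in CON, at 6.30, 7.13 and 8.69 in GA and at 41.8, 38.5 and 34.4 in GB. Every GB library was thus above every other library, while the CON and GA libraries overlapped. CON averaged 8.55 ± 0.386 FPKM (SD, n = 3) and GB 38.2 ± 3.68, a log2FC of 2.09 (SE 0.11, limma adjusted p = 9.8e-07). Against GA the log2FC was 2.31 (SE 0.11, adjusted p = 4.7e-07, same test).

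C1S, the protease that cleaves C4 and C2, was at 6.89, 7.66 and 7.30 FPKM in CON, at 7.43, 6.66 and 8.09 in GA and at 22.0, 22.3 and 20.3 in GB. Again the GB libraries stood apart and the others overlapped. Its log2FC was 1.5 in GB vs. CON (SE 0.086, limma adjusted p = 1.37e-06) and 1.48 in GB vs. GA (SE 0.086, adjusted p = 1.51e-06).

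SERPING1, the serpin that inactivates C1r and C1s, was at 5.84, 6.15 and 5.16 FPKM in CON, at 6.35, 5.47 and 5.62 in GA and at 21.4, 20.7 and 20.4 in GB. The spread within GB, an SD of 0.495 FPKM, was small beside the distance to the other groups. Its log2FC was 1.78 in GB vs. CON (SE 0.087, limma adjusted p = 3.93e-07) and 1.76 in GB vs. GA (SE 0.087, adjusted p = 4.43e-07). The description attached to its row in the table names it factor XIIa inhibitor, another name for the same protein, which also restrains the contact system of blood.

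The 3 genes stood in the middle and lower part of the rising genes. Ordered by log2FC among the 370 higher DEGs of GB vs. CON, C1R stood at place 159, SERPING1 at 209 and C1S at 257. Among the 335 higher DEGs of GB vs. GA the places were 134, 197 and 239.

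The proportion of the inhibitor to the proteases did not separate the groups. The FPKM of SERPING1 divided by the summed FPKM of C1R and C1S was 0.387, 0.370 and 0.327 in the CON libraries, 0.463, 0.397 and 0.335 in GA and 0.335, 0.341 and 0.374 in GB. The 3 groups overlapped in this ratio. The proportion between the proteases differed more, since C1R over C1S was 1.19, 1.17 and 1.16 in CON, 0.848, 1.07 and 1.07 in GA and 1.90, 1.73 and 1.70 in GB. In GB the ratio was above that of all other libraries, and GA lay below CON without overlap. In two-sided exact permutation tests of the mean ratio, C1R over C1S gave p = 0.1 in each of the 3 comparisons, the smallest p that 3 against 3 libraries allow, and SERPING1 over both proteases gave p = 0.8 between GB and CON and p = 0.4 between GA and either of them. Adjusted over the 9 tests of the ratios and of the share described below for the membrane regulators, the smallest value was 0.18 (exact permutation, Benjamini-Hochberg).

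**Figure D2:**
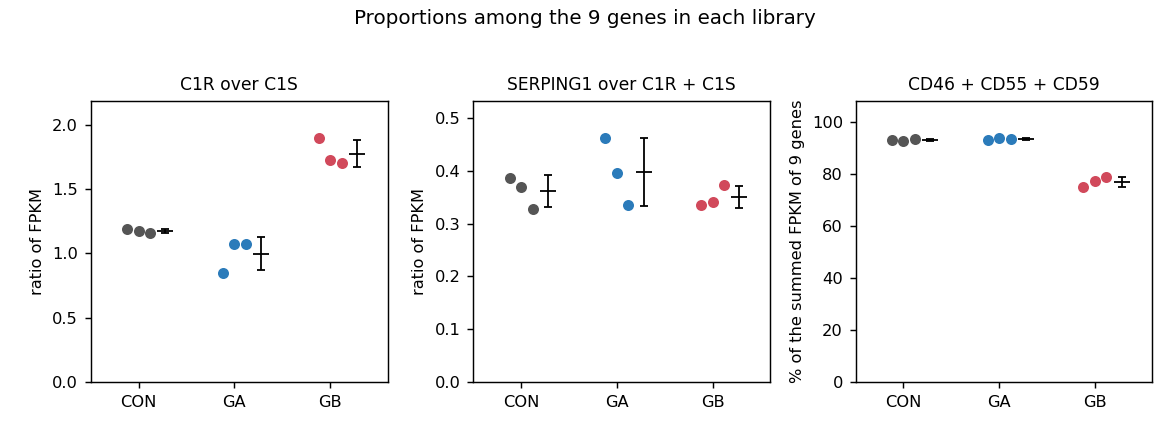
Proportions among the 9 genes in each library (points) with the mean and SD of each group (black, n = 3), on vertical axes that start at 0. C1R over C1S is 1.70 to 1.90 in GB and 1.19 or less elsewhere, SERPING1 over the sum of C1R and C1S overlaps between the groups, and the share of the membrane regulators is 74.9% to 78.8% in GB and 92.6% to 93.9% elsewhere.

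C3, the protein on which all activation routes converge, stayed at a low level. It was at 2.11, 2.41 and 2.10 FPKM in CON, at 3.04, 2.21 and 2.39 in GA and at 2.32, 1.93 and 2.25 in GB, and the groups overlapped. Its log2FC was −0.022 in GB vs. CON, with a 95% interval of −0.34 to 0.30, and −0.19 in GB vs. GA, with an interval of −0.50 to 0.13. Changes of more than 1 on the log2 scale lie outside both intervals. A further locus described as complement C3 (LOC528040) was at 0.04 FPKM or less in every library.

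CFB, the convertase protease of the alternative pathway, was at 0.13, 0.09 and 0 FPKM in CON, at 0.04, 0.08 and 0.08 in GA and at 0.44, 0.23 and 0.13 in GB. The GB libraries varied among themselves, and the lowest of them equalled the highest CON library. CFI, the protease that destroys C3b and C4b, was at 0.06, 0.12 and 0.05 FPKM in CON, at 0.05, 0.05 and 0.06 in GA and at 0.70, 0.37 and 0.66 in GB. Here each GB library was above all others, by 7.52 times over CON and 10.8 times over GA as ratios of means. Both genes had a mean under 0.5 FPKM and were left out of the tests. At these levels a value may rest on very few reads, as the lowest value above 0 was 0.05 for CFI and 0.04 for CFB.

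When the filter on low values was removed, CFI had a log2FC of 0.89 in GB vs. CON (limma adjusted p = 0.00144) and 0.95 in GB vs. GA (adjusted p = 0.0012), short of the fold threshold. With a pseudocount of 0.1 and no filter, a setting chosen after the values were seen, the log2FC of CFI was 1.92 and 2.10 (adjusted p = 0.0015 and 0.00104, limma) and it was a DEG in both comparisons. Its call therefore depended on the pseudocount and the filter. CFB had adjusted p-values of 0.0921 and 0.0938 without the filter (limma), and no call under either setting.

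CD46 and CD59, both membrane regulators, were the most abundant members. CD46, the cofactor with which factor I cleaves C3b and C4b on host cells, was at 231, 218 and 225 FPKM in CON, at 227, 225 and 251 in GA and at 195, 199 and 206 in GB. The GB libraries were below all CON and GA libraries, yet the difference was small, with a log2FC of −0.17 in GB vs. CON (SE 0.051, limma adjusted p = 0.0336) and −0.23 in GB vs. GA (SE 0.051, adjusted p = 0.00955). It passed the p threshold and not the fold threshold. The first of these p-values passed the threshold no longer when CON1, CON3, GB1 or GB2 was left out (0.0956, 0.0725, 0.103 and 0.0855), and over all alternatives it ran from 0.00254 to 0.245. Among all tested genes, 17.3% were lower in GB than in CON with an adjusted p under 0.05, and 19.2% were lower in GB than in GA. The median log2FC of all tested genes in GB vs. GA was −0.075. With median-of-ratios factors CD46 gave −0.15 in both comparisons.

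CD59, which blocks the assembly of the membrane attack pore, was at 82.8, 97.5 and 102 FPKM in CON, at 81.8, 102 and 105 in GA and at 62.7, 82.6 and 76.9 in GB. The highest GB library lay just below the lowest CON library and above the lowest GA library. Its log2FC was −0.35 in GB vs. CON, with a 95% interval of −0.64 to −0.058 (limma adjusted p = 0.0647), and −0.37 in GB vs. GA, with an interval of −0.66 to −0.085 (adjusted p = 0.0553). Neither passed the threshold. Leaving out CON1 or GA1 brought the adjusted p to 0.0422 or 0.0458 against CON and to 0.0496 or 0.0256 against GA, and leaving out GB2 gave 0.045 against GA. Over all alternatives it ran from 0.00217 to 0.248 against CON and from 0.0016 to 0.171 against GA.

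CD55, which speeds the decay of convertases, was at 4.71, 4.55 and 6.18 FPKM in CON, at 6.82, 6.04 and 7.41 in GA and at 6.81, 5.53 and 7.95 in GB. CON3 lay within the range of both other groups, so the groups overlapped. Its log2FC was 0.36 in GB vs. CON, with a 95% interval of 0.016 to 0.71 (adjusted p = 0.1, limma), and −0.0079 in GB vs. GA, with an interval of −0.35 to 0.34 (adjusted p = 0.977). Without CON3 the adjusted p against CON was 0.0427, and without GB2 it was 0.0455. Over all alternatives it ran from 0.0242, with the replicate number as a blocking factor, to 0.977.

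The summed FPKM of CD46, CD55 and CD59 lay at 318 to 333 in CON, at 316 to 363 in GA, but at 265 to 291 in GB. They made up 92.6% to 93.9% of the summed FPKM of the 9 genes in CON and GA and 74.9% to 78.8% in GB, with p = 0.1 against either group and p = 0.3 between GA and CON (two-sided exact permutation tests). The summed FPKM of C1R and C1S was 13.7 to 16.8 in CON and GA and 54.7 to 63.8 in GB. The libraries of GB did not overlap with those of CON for 5 of the 7 tested members (C1R, C1S, SERPING1, CD46 and CD59) and with those of GA for 4 of 7 (the same without CD59). This stands beside 46.1% of all tested genes without overlap between GB and CON and 46.8% between GB and GA.

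No member was a DEG with E2 and P4 alone. In GA vs. CON, limma called 0 of the 7 tested members, beside 0.0716% of all tested genes. An unadjusted p under 0.05 was held by 1 member, CD55, and by 19.3% of all tested genes. The log2FC of CD55 was 0.37 (95% interval 0.024 to 0.71, unadjusted p = 0.0386, adjusted p = 0.235, limma). For C1R it was −0.21 (interval −0.47 to 0.047), for C1S 0.017 (−0.18 to 0.21) and for SERPING1 0.023 (−0.17 to 0.22). For C3 it was 0.16 (−0.16 to 0.48), for CD46 0.061 (−0.054 to 0.18) and for CD59 0.027 (−0.26 to 0.32). Changes of more than 1 on the log2 scale lay outside all 7 intervals. The libraries of GA and CON overlapped for all 7, whereas 24.7% of all tested genes had no overlap.

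FPKM is scaled for transcript length, so that levels can be set side by side between genes. In CON the order was CD46, CD59, C1R, C1S, SERPING1, CD55, C3, CFI and CFB, and only the neighbours SERPING1 and CD55, and CFI and CFB, had overlapping libraries. CD46 was above 94.1% of all 17162 genes and CD59 above 87.2%, C1R above 48.6% and SERPING1 above 43.7%. In GA the libraries of C1S and C1R, of C1R and CD55, of CD55 and SERPING1 and of CFB and CFI overlapped. In GB the order was that of CON, with C1R at 73.8%, C1S at 63.0% and SERPING1 at 62.3% of all genes below it, and C1S and SERPING1, and CFI and CFB, overlapped. C3 was above 35.7% of genes in CON, 36.5% in GA and 35.8% in GB.

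The other genes of the complement system came from a list of 60 symbols, of which 40 had a row in the table and 14 passed the filter. Against either CON or GA, 2 of these 14 were DEGs, beside 4.01% of all tested genes against CON and 3.64% against GA. Both of these DEGs were higher in GB, and none was lower. They were C2 and C4A, the substrates of C1s, which together form the classical C3 convertase. Counting every adjusted p under 0.05, 5 were higher and 1 lower in GB vs. CON, and 4 higher and 1 lower in GB vs. GA. Over all tested genes the shares were 16.2% and 17.3% in the first comparison and 9.87% and 19.2% in the second. The median log2FC of the 14 genes was 0.036 against CON and −0.061 against GA. In GA vs. CON limma called 0 of the 14, beside 0.0716% of all tested genes, and 3 had an unadjusted p under 0.05, beside 19.3%. The other 26 genes, among them most recognition molecules (C1QB, C1QC and MBL2), the terminal components C5, C6, C7, C8B and C9 and the receptors C3AR1, C5AR1 and CR2, had a mean under 0.5 FPKM and never exceeded 0.54.

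**Figure D3:**
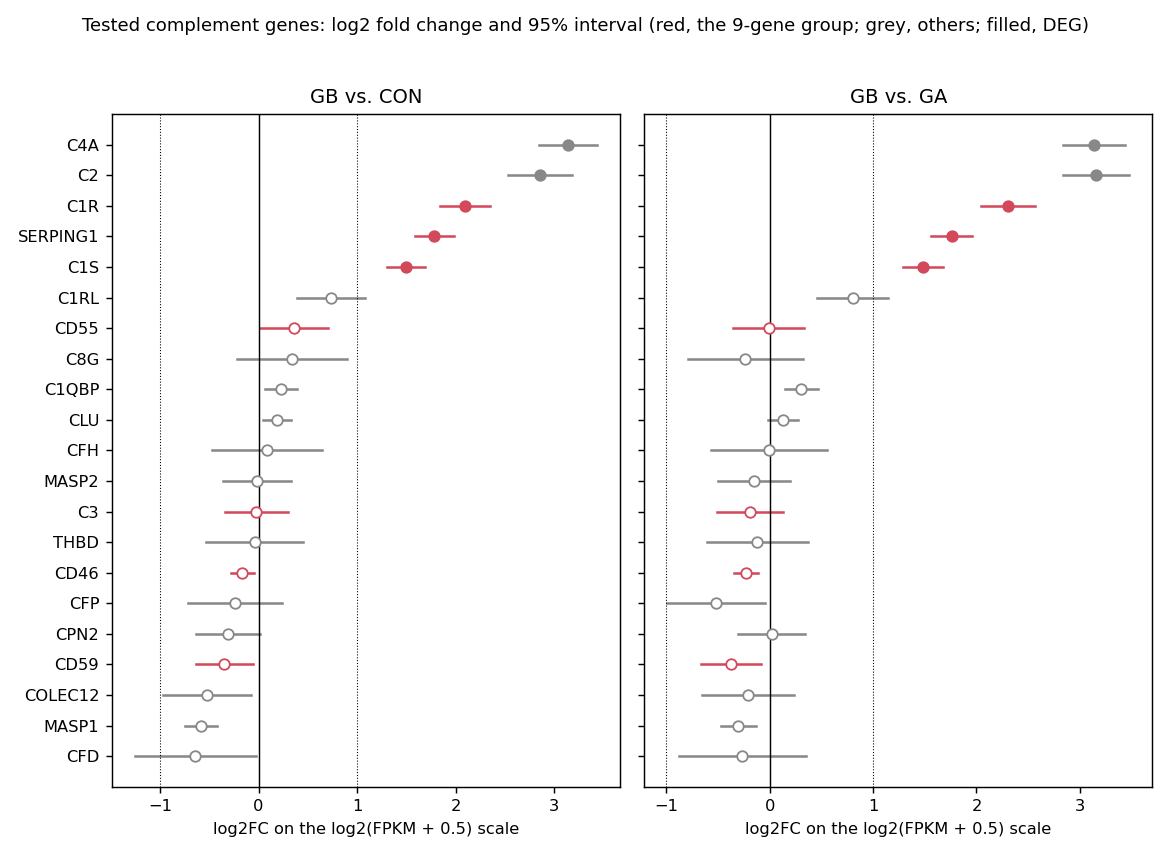
The log2FC of the 21 tested complement genes in GB vs. CON (left) and GB vs. GA (right) on the log2(FPKM + 0.5) scale, with 95% intervals (lines); red, the 7 tested members; grey, other complement genes; filled, DEG. Dotted lines mark a log2FC of −1 and 1, and C4A, C2, C1R, SERPING1 and C1S lie beyond 1 in both panels while all other points lie between the lines.

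C2 was at 1.87, 1.64 and 1.92 FPKM in CON, at 1.18, 1.17 and 1.84 in GA and at 16.7, 16.0 and 15.9 in GB. Its log2FC was 2.86 in GB vs. CON (SE 0.14, limma adjusted p = 4.68e-07) and 3.16 in GB vs. GA (SE 0.14, adjusted p = 2.19e-07). C2 and CFB are related proteases and neighbours in the RefSeq gene order of ARS-UCD2.0. The FPKM of C2 in GB was 38.0, 69.5 and 122 times that of CFB. This ratio was 14.4 and 18.2 in CON1 and CON2, undefined in CON3 with CFB at 0, and 29.5, 14.6 and 23.0 in GA. CFB was at 0.44, 0.23 and 0.13 FPKM in GB and may rest on very few reads, so the ratios are imprecise. C4A was at 0.49, 0.57 and 0.55 FPKM in CON, at 0.53, 0.61 and 0.48 in GA and at 8.18, 9.28 and 8.43 in GB, a log2FC of 3.14 in GB vs. CON (SE 0.13, limma adjusted p = 1.27e-07) and 3.13 in GB vs. GA. The table held further C4-like loci, looked up after the values were seen, between which the counting could divide reads, so the level of a single C4 gene is uncertain. Over C4A, LOC107131209 and LOC781663 the summed FPKM was 0.53 to 0.70 in CON and GA and 8.88 to 10.2 in GB. The log2FC of C2 and of C4A was above that of C1R, C1S and SERPING1 in both comparisons.

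The remaining genes with an adjusted p under 0.05 were below the fold threshold. C1RL, a relative of C1R named here after its values were seen, was at 5.84, 5.30 and 7.03 FPKM in CON, at 5.90, 4.54 and 6.99 in GA and at 11.4, 9.92 and 9.87 in GB, with a log2FC of 0.74 in GB vs. CON (SE 0.15, adjusted p = 0.00555, limma) and 0.80 in GB vs. GA (SE 0.15, adjusted p = 0.00421). MASP1, a protease of the lectin pathway and the most abundant protease gene of the list, went the other way. It was at 47.4, 50.1 and 45.2 FPKM in CON, at 40.2, 36.4 and 40.6 in GA and at 32.4, 33.8 and 28.7 in GB. The 3 groups did not overlap, and the log2FC was −0.58 in GB vs. CON (SE 0.074, adjusted p = 0.000352, limma), −0.30 in GB vs. GA (adjusted p = 0.0139) and −0.28 in GA vs. CON (adjusted p = 0.114). Without GA3 the adjusted p in GB vs. GA was 0.0527, and with median-of-ratios factors it was 0.0599. With library GC content as a covariate, alone and with the replicate block, MASP1 in GB vs. CON had a log2FC of −0.45 and −0.51 (adjusted p = 0.0749 and 0.236, limma) and C1RL of 0.43 and 0.81 (adjusted p = 0.388 and 0.253). Under these fits the genes with an adjusted p under 0.05 numbered 1472 and 514 in all, against 4212 without the covariate.

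C1QBP, a mainly mitochondrial protein that binds the globular heads of C1q, had 178 to 182 FPKM in CON, 155 to 182 in GA, yet 196 to 229 in GB, with a log2FC of 0.23 in GB vs. CON (adjusted p = 0.0362, limma) and 0.31 in GB vs. GA (adjusted p = 0.0112). CLU, clusterin, a fluid-phase inhibitor of the terminal complex, had 17.3 to 19.3 FPKM in CON, 18.7 to 20.4 in GA, then 20.6 to 21.7 in GB, with a log2FC of 0.19 in GB vs. CON (adjusted p = 0.0494, limma) and 0.13 in GB vs. GA (adjusted p = 0.175). In GB vs. CON the adjusted p of CLU rose above 0.05 when any 1 of the 9 libraries was left out (0.052 to 0.145), and that of C1QBP when CON1, CON2, CON3, GB1 or GB3 was left out (0.0672 to 0.119). Over all alternatives these p-values ran from 0.0317 to 0.327 for CLU and from 0.0183 to 0.419 for C1QBP.

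**Figure D4:**
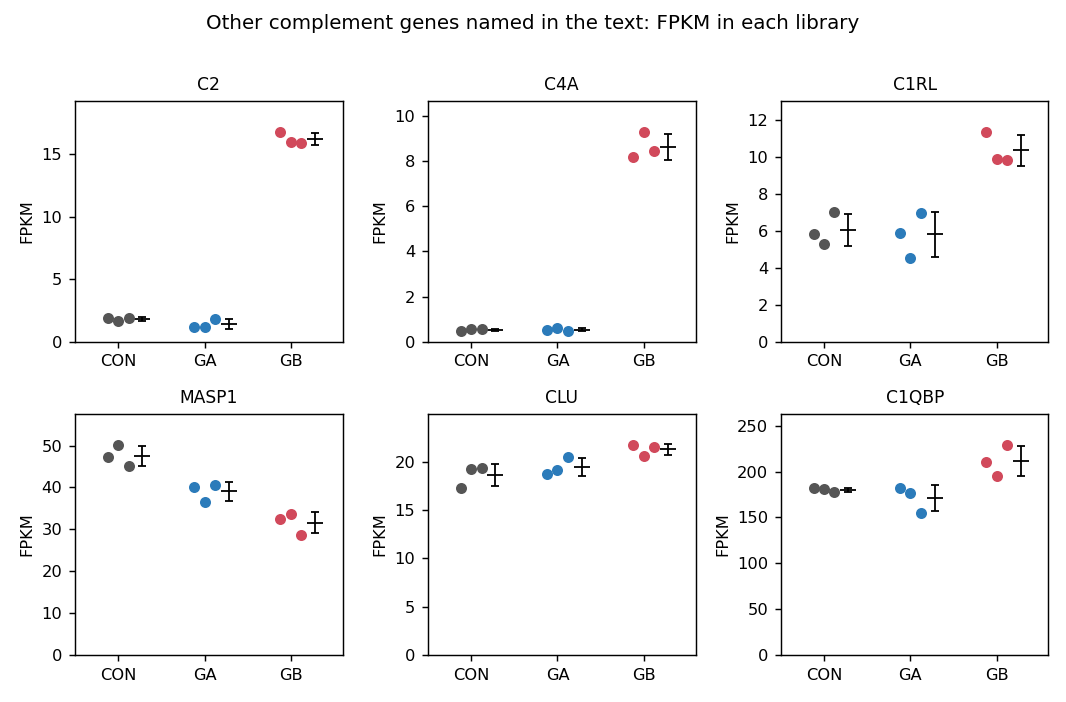
FPKM of 6 further complement genes in each library (points), with the mean and SD of each group (black, n = 3) and vertical axes that start at 0. C2 and C4A are at 15.9 to 16.7 and 8.18 to 9.28 in GB and under 2 elsewhere, C1RL is higher in GB than in any other library, and MASP1 is lower in GA than in CON and lower still in GB.

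The genes whose pattern over the 9 libraries was most like that of the 3 called members were found by the root mean square difference of log2(FPKM + 0.5), each gene centred on its own mean. For C1R they were IRF9 (a difference of 0.129 on the log2 scale), AGRN (0.135) and PTPRE (0.136). IRF9, the DNA-binding part of the interferon-activated ISGF3 complex, averaged 24.2 ± 2.06 FPKM in CON (SD, n = 3), 23.6 ± 1.10 in GA, and 109 ± 3.55 in GB. For C1S they were TRIM25 (0.0689), RNF114 (0.0711) and CDADC1 (0.0776), and TRIM25, a ubiquitin ligase of antiviral RNA sensing, was at 48.2 ± 2.44, 47.0 ± 2.71 and 137 ± 6.39 FPKM. For SERPING1 they were CTSS (0.0751), ACSL5 (0.0833) and SLC25A28 (0.0902), and CTSS, cathepsin S, a lysosomal protease of antigen presentation, was at 34.7 ± 1.24, 37.7 ± 2.15 and 126 ± 4.76 FPKM. These genes were picked for their likeness, so their values are a description.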

How the data were processed

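RNA-seq was done on 9 libraries of cultured bovine endometrial cells in 3 groups. Per the methods of the study and the submitters' processing notes, the authors trimmed reads with fastp, removed rRNA reads with Bowtie2, aligned to ARS-UCD1.2 with HISAT2, obtained counts per gene with RSEM and deposited FPKM per gene and library. Which annotation release and strand setting they used is not given in these sources. The descriptions in the labels tied each column to a sample. The table holds no counts, so DESeq2, the test of the authors, was not run, and no counting interval is given. From genes with a few reads per library, the depth of the libraries was estimated at 0.934 to 1.07 times that of CON1. Gene ratios far from 1 were left out of this estimate, so it could not show large differences in depth. A gene of low FPKM rests on few reads and its values are less precise.

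The 12578 genes whose FPKM averaged 0.5 or more were fitted as log2(FPKM + 0.5), with no added scaling, with limma 3.58.1 in R 4.3.3, with a mean for each group and a trend of the variance on expression. P-values were adjusted by Benjamini-Hochberg, and a DEG needed |log2FC| above 1 and an adjusted p under 0.05. The procedure was also run on data simulated with known changes and independent normal noise. Genes left out by the filter were not simulated, so that run does not cover genes of very low FPKM. The 9 genes, the list of 60 further complement genes, the marker lists and the tests were chosen with earlier results of these data known. Named genes were all members, other complement genes that were DEGs, had a mean of at least 10 FPKM or, chosen after their values were seen, had an adjusted p under 0.05, and for each called member the 3 most similar genes. The alternatives tried were pseudocounts of 1 and 0.1, no filter, a stricter filter (mean FPKM of 1), rescaling to equal sums (TPM) with and without the mitochondrially encoded genes, median-of-ratios factors, quantile normalization, no variance trend, a fit of just the groups in a comparison, the replicate number as a blocking factor, library GC content as a covariate with and without that block, each library left out, and, added after seeing the data, a pseudocount of 0.1 with no filter. No sequences or coordinates of these genes were used here.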

Additional observations from a re-analysis of the deposited data

How the results depend on the processing

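C1R, C1S, SERPING1, C2 and C4A were DEGs against CON as against GA under each of the 23 alternatives run per result. Their adjusted p reached 0.0226 at most (C1R in GB vs. CON), and 0 members were called in GA vs. CON under any alternative. Part of the alternatives could alter the p-value of these genes and not their log2FC. These were the changes of filter alone, of the variance trend, of the groups fitted and of the block alone, and leaving out a library of the group not compared. The log2FC of C1R in GB vs. CON ranged from 2.03 to 2.23, of C1S from 1.44 to 1.68 and of SERPING1 from 1.70 to 1.99. With a pseudocount of 0.1 and no filter, CFI made the count of members 4 in both comparisons, and SUSD4 made the count of other complement genes 3 in GB vs. GA. Values near 0 changed sign. With rescaling to equal sums, rescaling without mitochondrially encoded genes, median-of-ratios factors and quantile normalization, in this order, the log2FC in GA vs. CON was −0.014, −0.012, −0.040 and −0.047 for C1S, −0.0079, −0.0059, −0.033 and −0.031 for SERPING1 and −0.0062, −0.0039, −0.033 and −0.028 for CD59. In GB vs. GA, CD55 gave 0.018 with equal sums, 0.062 with median-of-ratios factors, 0.018 with quantile normalization and 0.0040 with library GC content and the replicate block. In GB vs. CON, C3 gave 0.0066 with quantile normalization, 0.21 with GC content and 0.45 with GC content and the block. In GA vs. CON, with GC content and then with the block added, CD46 gave −0.082 and −0.035 and CD59 −0.12 and −0.12. With 1 library left out, the range was −0.046 to 0.086 for C1S, −0.043 to 0.073 for SERPING1 and −0.062 to 0.14 for CD59 in GA vs. CON, −0.064 to 0.043 for C3 in GB vs. CON and −0.12 to 0.12 for CD55 in GB vs. GA. The cause was not tested. Over all tested genes the replicate numbers showed no pairing of the libraries. Deviations from the group means correlated at −0.031 to 0.077 for libraries with the same number and at −0.068 to 0.056 for different numbers. A correlation over all genes cannot exclude pairing in single genes. CD55 was highest in CON3, GA3 and GB3 and lowest in CON2, GA2 and GB2, and CD59 was lowest in CON1, GA1 and GB1. With the replicate block the log2FC of C1R in GB vs. CON was 2.09 and the counts of members called were 0, 3 and 3. The adjusted p of CD59 was then 0.00217 against CON and 0.00179 against GA, and that of CD55 was 0.0242 against CON (limma). Both genes stayed short of the fold threshold, so the block changed no DEG call of the members. FPKM keeps no read counts, so the reads behind genes under 1 FPKM, such as CFB and CFI, cannot be given. The study reports clean reads for each group, which were not used here.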

Other observations

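The genes next to the called members on the chromosome, looked up after the values of the members were seen and in the RefSeq gene order of ARS-UCD2.0, differed in their values. SERPING1 lies between UBE2L6, which encodes the conjugating enzyme that hands on ISG15, and YPEL4. UBE2L6 was at 16.0, 10.5 and 12.4 FPKM in CON, at 11.4, 10.9 and 13.1 in GA and at 157, 151 and 161 in GB. YPEL4 had 15.5, 14.7 and 20.6 FPKM in CON, 19.8, 14.1 and 20.6 in GA, against 11.3, 11.3 and 5.02 in GB. Its log2FC was −0.91 in GB vs. CON (adjusted p = 0.0368, limma) and −1.01 in GB vs. GA (adjusted p = 0.0279), just past the fold threshold. Without GB3 these values were −0.55 (adjusted p = 0.0619) and −0.64 (adjusted p = 0.0392), and the call against GA was also lost without GA1 or GA3 (adjusted p = 0.082 and 0.092) and in all under 10 of 23 alternatives. C1R and C1S lie side by side, with LPCAT3 on one flank and C1RL, beyond 1 other gene, on the other. LPCAT3, an enzyme of phospholipid remodelling, was at 57.6 to 59.0 FPKM in CON and 56.0 to 60.4 in GB. On the far side of CFB from C2 lies NELFE, which was at 72.7 to 74.0 FPKM in CON and 69.0 to 76.7 in GB. MASP1, which was lower in GB, lies next to RTP4, an interferon-induced gene, which was at 1.46 to 2.20 FPKM in CON and 158 to 160 in GB.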
